A study of Mus musculus with 23 samples.

Results

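The genes of the mouse major histocompatibility complex (MHC) and of antigen presentation were followed in testis RNA of 3 inbred strains on 2 diets. Members were the genes of the count table whose symbol begins with H2-, together with B2m, Cd74, Tap1, Tap2, Tapbp, Ciita, Nlrc5, Psmb8, Psmb9 and Psmb10. This gave 43 genes of the 28861 in the table, and the rule used only gene symbols, though it was written with earlier results of these data known. They comprised 2 classical class I heavy chains, 19 class Ib genes, 8 class II chains, the class II chaperone Cd74, 7 partners of class I, 2 transactivators and 4 other genes with an H2 symbol. On chromosome 17, 38 of them lie between positions 33915899 and 37274484 (GRCm38), from Tapbp to H2-M3. B2m, Cd74, Ciita, Nlrc5 and Psmb10 lie on other chromosomes. In the GENCODE M21 annotation 36 are protein coding.

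The testes came from male, untreated, wild-type mice fed either diet from 6 to 16 weeks of age. NZO/HlLtJ, inbred mice that become obese and often diabetic, gave 4 libraries on each diet. CAST/EiJ, inbred from wild-caught mice, gave 4 libraries on 44% fat and 3 on 10% fat. C57BL/6J, whose genome is the mouse reference, gave 4 on each diet. Per the labels, the 44% diet was high in fat and sugar, the 10% diet was its control, and both held fiber; polyA RNA was read as pairs of 100 bases.

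Library totals (M, 1e+06 estimated counts) had a median of 35.1 M; they were 31.9 to 43.4 M for NZO/HlLtJ, 33.0 to 78.7 M for CAST/EiJ and 21.9 to 38.4 M for C57BL/6J. All 14 listed transcripts of testis cells were present, and their summed level lay between 8476 and 10990 counts per 1e+06 counts (CPM) in every library. Epididymal transcripts stood at 99.1 CPM in CAST/EiJ 44% fat replicate 2 and 17.6 CPM in C57BL/6J 10% fat replicate 2, against at most 5.7 CPM elsewhere. Counts of members that passed the test without these 2 libraries stand with the other alternatives at the end.

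MHC class I molecules are a heavy chain bound to beta-2-microglobulin (B2m) and show peptides from inside the cell to CD8 T cells. Proteasomes cut these peptides, the TAP transporter carries them into the endoplasmic reticulum, and tapasin (Tapbp) helps load them. Class II molecules are pairs of an alpha and a beta chain on professional antigen-presenting cells such as macrophages, dendritic cells and B cells, and show peptides taken up from outside to CD4 T cells. In the testis, an immune-privileged organ, germ cells carry little class I, and interstitial macrophages are a known source of class II.

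Stretches of 5 promoters are shown because class I and class II genes are known to be switched on through elements at these places. Letters are those of RefSeq on GRCm38.p6, which is C57BL/6J sequence, and capitals mark 4 motifs searched on both strands: GGGGATTCC (kappaB), TTTCACTT (the core of an interferon-stimulated response element), TGACG (the core of a cyclic AMP response element, CRE) and CTGATTGG (Y box, bound by NF-Y). The H2-K1 stretch is chr17:34000327-34000463 on the minus strand, that of H2-D1 is chr17:35262918-35263053 on the plus strand, and that of the class Ib gene H2-Q7 is chr17:35439017-35439151 on the plus strand. The class II stretches are chr17:34287862-34287941 on the minus strand for H2-Aa and chr17:34305738-34305817 on the plus strand for H2-Eb1.
H2-K1: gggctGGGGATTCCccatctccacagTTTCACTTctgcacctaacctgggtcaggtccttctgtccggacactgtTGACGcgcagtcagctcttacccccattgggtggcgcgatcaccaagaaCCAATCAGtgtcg
H2-D1: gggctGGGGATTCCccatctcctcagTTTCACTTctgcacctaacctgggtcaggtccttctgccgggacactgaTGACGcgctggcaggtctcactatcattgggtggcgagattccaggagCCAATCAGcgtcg
H2-Q7: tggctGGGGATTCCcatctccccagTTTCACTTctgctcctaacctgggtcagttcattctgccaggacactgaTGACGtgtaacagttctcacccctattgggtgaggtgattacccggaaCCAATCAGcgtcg
H2-Aa: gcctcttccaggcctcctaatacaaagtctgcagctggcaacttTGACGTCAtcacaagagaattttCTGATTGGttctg
H2-Eb1: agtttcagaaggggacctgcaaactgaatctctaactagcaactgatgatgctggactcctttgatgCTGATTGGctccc

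The class I stretches hold the searched letters of all 4 motifs in the same order, with those of the Y box matched on the opposite strand. Between the CRE core and that match, each also holds attgg as printed. It is unmarked because the full letters searched for are absent there. Which of these sites acts as a Y box was not tested. In H2-Aa the CRE core was found on both strands with overlapping letters. The stretch of H2-K1 was identical to that of H2-D1 at 120 of 136 aligned bases (88.2%) and to that of H2-Q7 at 114 of 135 (84.4%), and H2-D1 and H2-Q7 shared 115 of 134 (85.8%). Of 29 members with a promoter in the RefSeq table (250 bases before to 50 after the start), 4 held the kappaB letters, 9 the interferon core, 12 the CRE core and 12 the Y box. Over the promoters of 27025 genes these shares were 0.296%, 1.91%, 23.05% and 4.70%. A match describes letters of the reference; the CAST/EiJ and NZO/HlLtJ letters were not analysed here.

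The strain comparisons ask which of these genes differ between genetic backgrounds. NZO/HlLtJ testes carried more of all 7 class I partners than CAST/EiJ testes over both diets, and CAST/EiJ had the lowest levels of both classical class I chains, of Cd74 and of H2-Eb1. Of the 34 members with enough counts to test, 28 passed between NZO/HlLtJ and CAST/EiJ (82.4%), 20 higher and 8 lower in NZO/HlLtJ, against 72.1% of all 22873 genes tested. Between NZO/HlLtJ and C57BL/6J 23 passed (67.6%, 13 higher and 10 lower in NZO/HlLtJ), against 59.1% of all genes. Between CAST/EiJ and C57BL/6J 25 passed (73.5%, 7 higher and 18 lower in CAST/EiJ), against 66.8% of all genes. By direction, all genes split into 39.6% higher and 32.5% lower in NZO/HlLtJ against CAST/EiJ, 30.4% and 28.7% against C57BL/6J, and 32.7% and 34.1% for CAST/EiJ against C57BL/6J. Members and all genes were tested with the quasi-likelihood F test in edgeR, adjusted after Benjamini and Hochberg over all genes tested, at a threshold of 0.05. Since most genes differed between strains, a member past the threshold is no rare event here. Between NZO/HlLtJ and C57BL/6J the split by direction was not stable: without NZO/HlLtJ 44% fat replicate 2 it was 12 higher and 13 lower. Within 10% fat, as a contrast in the fit of all libraries, 14 members passed in that comparison (7 higher and 7 lower), against 42.9% of all genes.

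The median log2 fold change of the members was 0.51 for NZO/HlLtJ over CAST/EiJ, 0.16 for NZO/HlLtJ over C57BL/6J and -0.54 for CAST/EiJ over C57BL/6J, while the medians over all genes were 0.06, 0.01 and 0.00. These comparisons share libraries, so they are not independent of each other. All libraries of one strain lay above all of the other for 17 of 34 members between NZO/HlLtJ and CAST/EiJ, against 43.9% of all genes. The count was 10 between NZO/HlLtJ and C57BL/6J, against 26.3%, and 16 between CAST/EiJ and C57BL/6J, against 39.1%. In whole testis, fewer cells of a type and less RNA per cell cannot be told apart. MHC genes are among the most variable of the mouse, and a read that differs from the C57BL/6J build can go uncounted; how the authors treated such variants was not given in the sources used here, and its part in the strain differences was not tested.

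**Figure D1:**
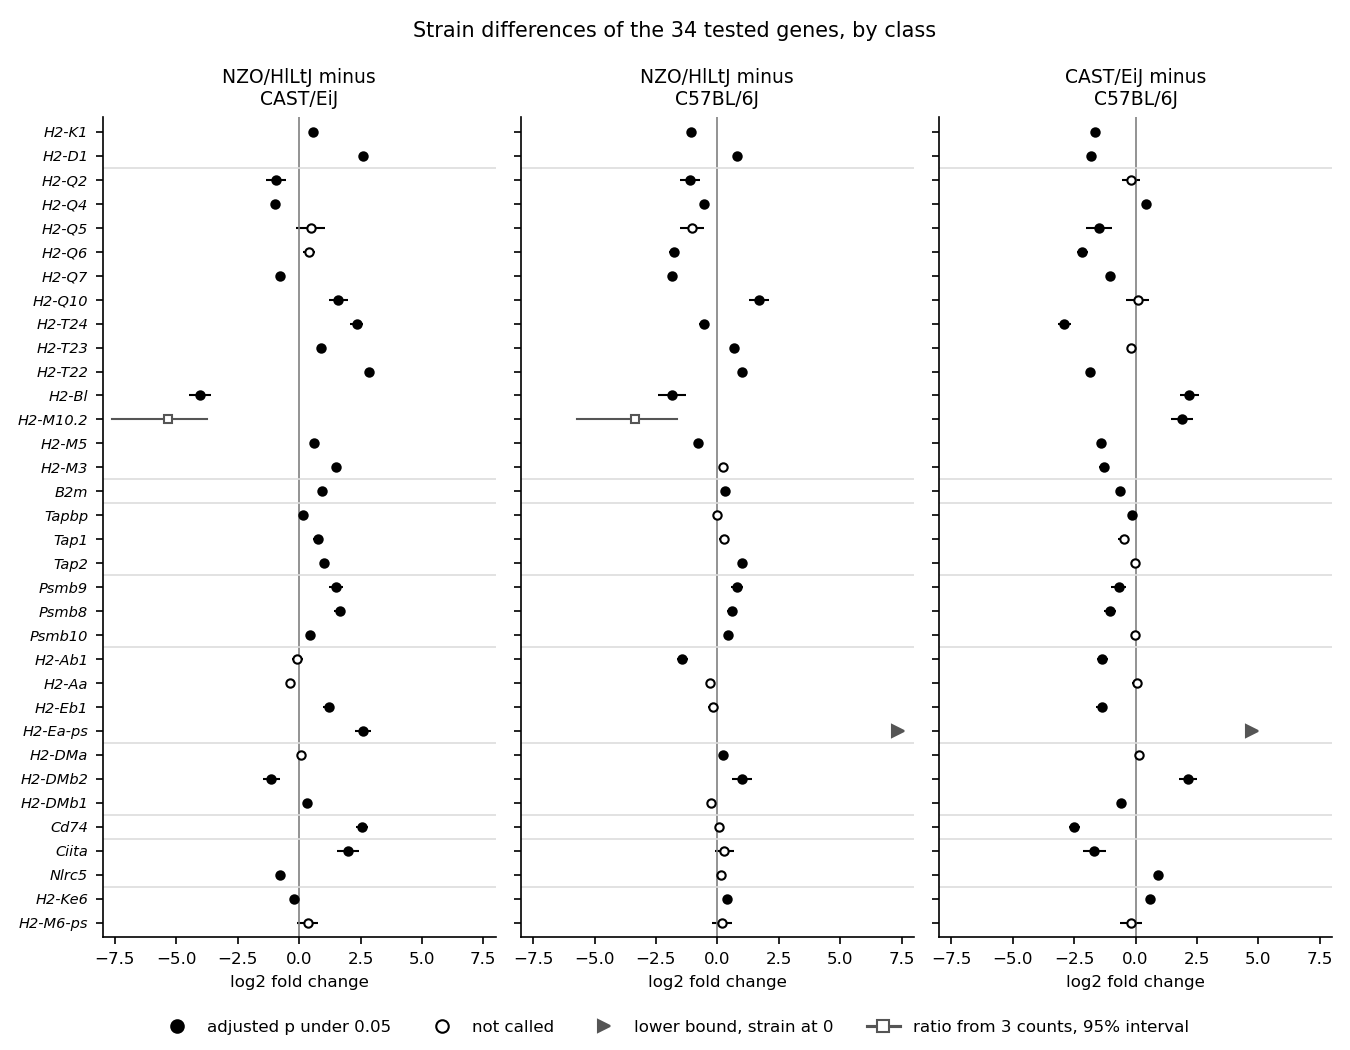
Log2 fold changes (x axis) of the 34 tested members (y axis, by class) for NZO/HlLtJ over CAST/EiJ, NZO/HlLtJ over C57BL/6J and CAST/EiJ over C57BL/6J, with the standard error as bars. Filled points have an adjusted p under 0.05 and open points do not. The triangle marks a lower bound (H2-Ea-ps) and the square a ratio from 3 counts with its 95% interval (H2-M10.2). All 7 class I partners lie above 0 for NZO/HlLtJ over CAST/EiJ. There 5 of them passed within 10% fat and 6 within 44% fat, against 13387 and 14802 of all 22873 genes.

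H2-K1 and H2-D1 are the classical class I heavy chains that present peptide to CD8 T cells, and both differed between all 3 strains, in different orders. H2-K1 (chr17:33996017-34000333, minus strand) stood at 21.1, 27.0, 22.3 and 21.8 CPM in NZO/HlLtJ on 44% fat and 18.7, 22.7, 21.7 and 26.9 CPM on 10% fat. In CAST/EiJ H2-K1 stood at 14.2, 16.9, 16.8 and 14.7 CPM on 44% fat and 13.9, 16.8 and 15.5 CPM on 10% fat. In C57BL/6J H2-K1 stood at 48.9, 45.1, 51.7 and 50.1 CPM on 44% fat and 52.9, 48.8, 45.1 and 43.5 CPM on 10% fat. Thus every C57BL/6J library lay highest and every CAST/EiJ library lowest, with no overlap between strains. The strain means were 22.8 ± 2.84, 15.5 ± 1.31 and 48.3 ± 3.40 CPM (SD, n = 8, 7 and 8) for NZO/HlLtJ, CAST/EiJ and C57BL/6J. The log2 fold change was 0.56 (standard error, SE, 0.07, adjusted p = 5.11e-08) for NZO/HlLtJ over CAST/EiJ and -1.08 (SE 0.06, adjusted p = 2.03e-14) for NZO/HlLtJ over C57BL/6J. For CAST/EiJ over C57BL/6J it was -1.64 (SE 0.07, adjusted p = 3.11e-18), a 3.12-fold lower level.

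H2-D1 (chr17:35262730-35267499, plus strand) put NZO/HlLtJ first instead. Its NZO/HlLtJ libraries held 26.5, 36.3, 28.0 and 27.8 CPM on 44% fat and 22.6, 26.2, 27.5 and 29.6 CPM on 10% fat. Its CAST/EiJ libraries held 3.90, 4.78, 4.61 and 4.21 CPM on 44% fat and 4.38, 5.20 and 4.85 CPM on 10% fat. Its C57BL/6J libraries held 15.3, 14.3, 16.9 and 17.5 CPM on 44% fat and 19.0, 17.2, 13.2 and 14.1 CPM on 10% fat. Again the strains did not overlap, and CAST/EiJ was lowest. The H2-D1 means were 28.1 ± 3.91 CPM in NZO/HlLtJ, 4.56 ± 0.436 CPM in CAST/EiJ and 15.9 ± 2.01 CPM in C57BL/6J. NZO/HlLtJ exceeded CAST/EiJ by a log2 fold change of 2.62 (SE 0.09, adjusted p = 1.91e-20), which is 6.14-fold, and C57BL/6J by 0.81 (SE 0.08, adjusted p = 3.34e-10). CAST/EiJ over C57BL/6J was -1.81 (SE 0.09, adjusted p = 1.76e-16).

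The balance of both chains can be read per length of exon sequence. That length joins the exons of all annotated transcripts of a gene. A share between genes therefore depends on the annotation as well as on the counts, while its change between strains does not depend on the length alone. H2-K1 made up 41.7% ± 1.53 of the sum of H2-K1 and H2-D1 per kb in NZO/HlLtJ (39.5 to 44.4% over 8 libraries), 74.9% ± 1.16 in CAST/EiJ (73.6 to 76.2% over 7) and 72.8% ± 1.38 in C57BL/6J (70.9 to 75.0% over 8). NZO/HlLtJ libraries therefore held more H2-D1 than H2-K1 counts per kb, and all libraries of the other strains held more H2-K1 counts. How far strain variants of either gene changed these counts was not tested. In the annotation 0.957% of the windows of 100 bases of H2-K1 transcripts and 3.59% of those of H2-D1 occur in another gene, so few reads of the reference sequence could be split between genes.

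**Figure D2:**
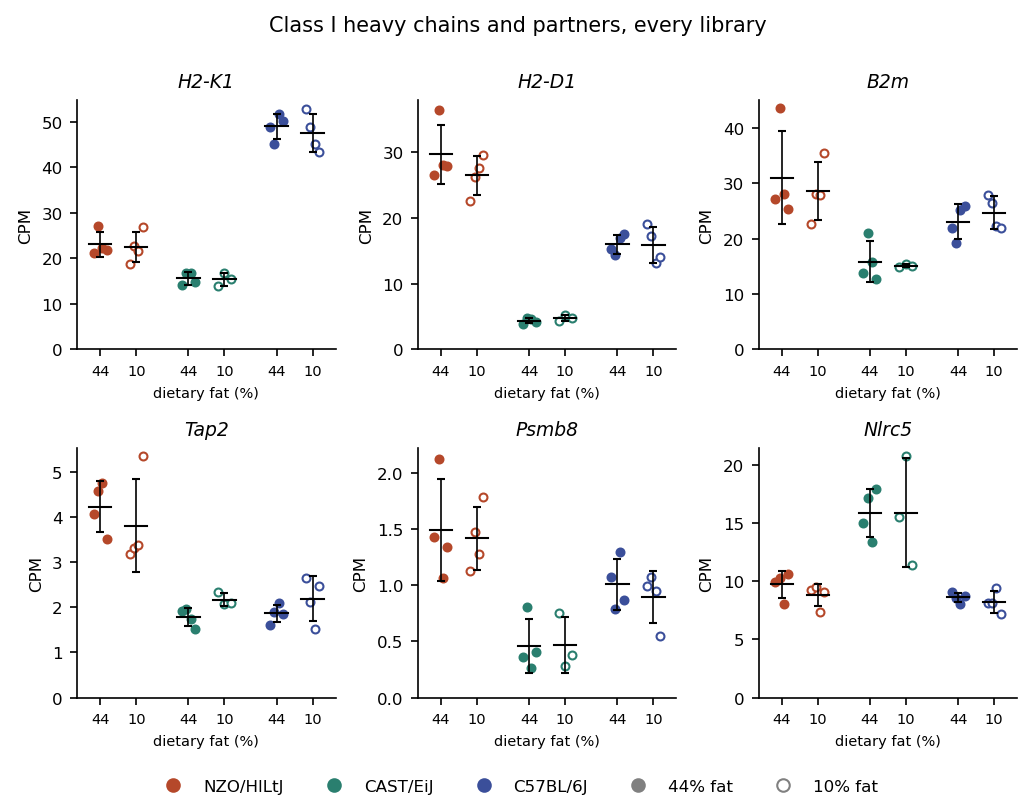
Level (y axis, CPM) of H2-K1, H2-D1, B2m, Tap2, Psmb8 and Nlrc5 in each library of NZO/HlLtJ, CAST/EiJ and C57BL/6J (x axis); filled points are 44% fat and open points 10% fat, the bar is the mean and the error bar the SD. C57BL/6J lies highest for H2-K1, NZO/HlLtJ for H2-D1 and Tap2, and CAST/EiJ for Nlrc5.

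The class I partners make and load the peptide. All 7 were higher in NZO/HlLtJ than in CAST/EiJ, 5 of 7 were higher in NZO/HlLtJ than in C57BL/6J with none lower, and 4 of 7 were lower in CAST/EiJ than in C57BL/6J with none higher. By the same test, all genes were 39.6% higher and 32.5% lower, 30.4% and 28.7%, and 32.7% and 34.1% in these comparisons. The median log2 fold changes of the partners were 0.95, 0.43 and -0.48. Within a single diet, 5 of 7 passed on 10% fat and 6 on 44% fat between NZO/HlLtJ and CAST/EiJ. Of all 22873 genes, 13387 and 14802 passed there. Between NZO/HlLtJ and C57BL/6J 1 and 4 of the 7 passed, against 9805 and 11299 of all genes. B2m, the light chain of every class I molecule, held 27.2, 43.5, 28.0 and 25.3 CPM in NZO/HlLtJ on 44% fat and 22.7, 28.0, 27.9 and 35.4 CPM on 10% fat. In CAST/EiJ B2m held 13.8, 21.0, 15.7 and 12.7 CPM on 44% fat and 14.9, 15.4 and 15.1 CPM on 10% fat, and in C57BL/6J 21.9, 19.2, 25.2 and 25.9 CPM on 44% fat and 27.9, 26.5, 22.4 and 21.96 CPM on 10% fat. NZO/HlLtJ libraries all lay above CAST/EiJ libraries, while C57BL/6J overlapped with both. B2m in NZO/HlLtJ exceeded CAST/EiJ by a log2 fold change of 0.95 (SE 0.11, adjusted p = 2.01e-08) and C57BL/6J by 0.32 (SE 0.11, adjusted p = 0.0116). The call over C57BL/6J was lost without NZO/HlLtJ 44% fat replicate 2, the library at 43.5 CPM (0.21, adjusted p = 0.0525), within 10% fat (0.20, adjusted p = 0.288) and in DESeq2 with all libraries (0.29, adjusted p = 0.0572).

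Tap2, one of the subunits of the peptide transporter, separated NZO/HlLtJ from both other strains. It held 4.08, 4.58, 4.77 and 3.51 CPM in NZO/HlLtJ on 44% fat and 3.19, 3.32, 3.38 and 5.35 CPM on 10% fat. In CAST/EiJ it held 1.92, 1.97, 1.74 and 1.51 CPM on 44% fat and 2.34, 2.07 and 2.10 CPM on 10% fat, and in C57BL/6J 1.62, 1.90, 2.09 and 1.86 CPM on 44% fat and 2.64, 2.12, 1.53 and 2.48 CPM on 10% fat. The NZO/HlLtJ libraries were the highest without overlap, and the other strains overlapped with each other. The log2 fold change of Tap2 was 1.02 (SE 0.13, adjusted p = 2.92e-08) over CAST/EiJ and 0.99 (SE 0.12, adjusted p = 5.32e-08) over C57BL/6J. Tap1, the other subunit, averaged 1.92 ± 0.666 CPM in NZO/HlLtJ, 1.15 ± 0.164 CPM in CAST/EiJ and 1.58 ± 0.547 CPM in C57BL/6J, and passed only between NZO/HlLtJ and CAST/EiJ (0.76, SE 0.22, adjusted p = 0.0027), a call lost within 10% fat (0.69, adjusted p = 0.07). Tapbp averaged 78.3 ± 5.39, 71.0 ± 3.18 and 79.4 ± 4.05 CPM in these strains, and CAST/EiJ was lower than both others by small margins (log2 fold change 0.14 for NZO/HlLtJ over CAST/EiJ and -0.16 for CAST/EiJ over C57BL/6J). Within 44% fat the Tapbp value over CAST/EiJ was 0.12 (adjusted p = 0.0706).

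Psmb8, Psmb9 and Psmb10 are the catalytic subunits that turn a standard proteasome into an immunoproteasome. Psmb8 had the largest strain difference of the partners, with 1.43, 2.13, 1.07 and 1.34 CPM in NZO/HlLtJ on 44% fat and 1.13, 1.47, 1.27 and 1.78 CPM on 10% fat. In CAST/EiJ Psmb8 had 0.358, 0.802, 0.266 and 0.406 CPM on 44% fat and 0.749, 0.282 and 0.377 CPM on 10% fat. In C57BL/6J Psmb8 had 1.07, 0.790, 1.30 and 0.870 CPM on 44% fat and 0.994, 1.07, 0.948 and 0.551 CPM on 10% fat. NZO/HlLtJ stood above every CAST/EiJ library, and C57BL/6J overlapped with both. The log2 fold change of Psmb8 was 1.65 (SE 0.23, adjusted p = 2.89e-07) for NZO/HlLtJ over CAST/EiJ, 0.60 (SE 0.20, adjusted p = 0.0117) for NZO/HlLtJ over C57BL/6J and -1.05 (SE 0.24, adjusted p = 0.000359) for CAST/EiJ over C57BL/6J. Psmb8 in NZO/HlLtJ over C57BL/6J did not pass within 10% fat (0.63, adjusted p = 0.078) or within 44% fat (0.57, adjusted p = 0.0951). Psmb9 averaged 0.863, 0.308 and 0.492 CPM in NZO/HlLtJ, CAST/EiJ and C57BL/6J and was higher in NZO/HlLtJ than in CAST/EiJ (1.49, SE 0.28) and C57BL/6J (0.81, SE 0.26, lost within 10% fat at 0.71, adjusted p = 0.117). Psmb9 in CAST/EiJ over C57BL/6J was -0.68 (adjusted p = 0.0451), a call lost without any 1 of 10 libraries (omissions of 1 library gave -0.88 to -0.56) and within 10% fat (-0.29, adjusted p = 0.585). The libraries were C57BL/6J 10% fat replicates 1 and 2 and 44% fat replicates 2, 3 and 4, CAST/EiJ 10% fat replicates 1 and 2 and 44% fat replicates 1 and 4, and NZO/HlLtJ 44% fat replicate 4. This Psmb9 call was also lost in edgeR with the run of sample numbers as a covariate (adjusted p = 0.0572) and with only these strains in the fit (0.0540). It was lost in edgeR without both libraries with epididymal transcripts (0.0681) and in limma on the log2 table (0.0742). Psmb10 was 2.66, 1.96 and 1.96 CPM and passed in NZO/HlLtJ over CAST/EiJ (0.44, SE 0.14) and over C57BL/6J (0.43, SE 0.13). Within 10% fat both Psmb10 calls were lost (0.38 and 0.32, adjusted p = 0.123 and 0.19), and without NZO/HlLtJ 10% fat replicate 4 the values were 0.28 and 0.27. Psmb9 and Tap1 overlap on opposite strands, and strand use in counting was not given in the sources used here: reads of the shared end could fall to either.

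Per kb of exon sequence, joined over all annotated transcripts, B2m and Tapbp were the most abundant members in every strain. B2m had 34.6, 18.0 and 27.8 CPM per kb in NZO/HlLtJ, CAST/EiJ and C57BL/6J, and Tapbp 21.6, 19.6 and 21.9 CPM per kb. H2-D1 came next in NZO/HlLtJ at 10.9 CPM per kb, whereas H2-K1 came next in CAST/EiJ at 5.29 CPM per kb and in C57BL/6J at 16.4 CPM per kb.

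Class Ib molecules resemble classical class I, vary less between individuals and often serve special receptors. Of 13 tested class Ib genes, 6 were higher and 5 lower in NZO/HlLtJ than CAST/EiJ, 3 higher and 8 lower in NZO/HlLtJ than in C57BL/6J, and 3 higher and 7 lower in CAST/EiJ than in C57BL/6J. The shares of all genes, higher and lower in the same order, were 39.6% and 32.5%, 30.4% and 28.7%, and 32.7% and 34.1%. The median log2 fold changes were 0.47, -0.78 and -1.06. The order of the strain means differed from gene to gene within the class.

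H2-T22, a ligand of some gamma-delta T cell receptors, held 4.86, 5.72, 3.29 and 4.07 CPM in NZO/HlLtJ on 44% fat and 3.90, 3.83, 4.25 and 5.27 CPM on 10% fat. In CAST/EiJ H2-T22 held 0.584, 0.517, 0.562 and 0.668 CPM on 44% fat and 1.08, 0.407 and 0.404 CPM on 10% fat. In C57BL/6J H2-T22 held 2.11, 2.28, 1.71 and 2.09 CPM on 44% fat and 2.88, 2.54, 1.77 and 2.11 CPM on 10% fat. No strain overlapped with another, in the order NZO/HlLtJ, C57BL/6J, CAST/EiJ, as for H2-D1. NZO/HlLtJ exceeded CAST/EiJ by a log2 fold change of 2.86 (SE 0.17, adjusted p = 8.61e-15), or 7.27-fold, and C57BL/6J by 1.01 (SE 0.14, adjusted p = 4.5e-07), and CAST/EiJ over C57BL/6J was -1.85 (SE 0.18, adjusted p = 3.89e-10). H2-T22 shares 8.86% of its 100-base windows with other genes, mostly H2-T10, so part of its count may belong to that gene.

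H2-T23, known as Qa-1 and read by natural killer and CD8 T cells, averaged 3.73 ± 0.813 CPM in NZO/HlLtJ, 1.99 ± 0.395 CPM in CAST/EiJ and 2.29 ± 0.396 CPM in C57BL/6J. NZO/HlLtJ was higher than CAST/EiJ (0.90, SE 0.14) and C57BL/6J (0.70, SE 0.13), with no library overlapping with either, while CAST/EiJ over C57BL/6J did not pass (-0.20, SE 0.14, adjusted p = 0.218). H2-T24 was low in CAST/EiJ: it had 1.11, 0.911, 0.711 and 0.836 CPM in NZO/HlLtJ on 44% fat and 0.790, 1.05, 0.917 and 1.32 CPM on 10% fat. In CAST/EiJ H2-T24 had 0.133, 0.388, 0.177 and 0.029 CPM on 44% fat and 0.210, 0.157 and 0.216 CPM on 10% fat, and in C57BL/6J 2.16, 1.49, 1.39 and 1.36 CPM on 44% fat and 1.28, 1.34, 1.01 and 1.33 CPM on 10% fat. Every CAST/EiJ library lay below the other strains, which overlapped with each other. The log2 fold change of H2-T24 was 2.34 (SE 0.26, adjusted p = 4.68e-09) for NZO/HlLtJ over CAST/EiJ and -2.90 (SE 0.25, adjusted p = 4.47e-11) for CAST/EiJ over C57BL/6J, the largest fall in that comparison among the members. NZO/HlLtJ over C57BL/6J was -0.56 (SE 0.19, adjusted p = 0.0144), with -0.28 within 10% fat (adjusted p = 0.445) and -0.84 within 44% fat.

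H2-Q7, which encodes Qa-2, and H2-Q6 were highest in C57BL/6J. H2-Q7 had 0.757, 0.817, 0.563 and 0.808 CPM in NZO/HlLtJ on 44% fat and 0.734, 0.652, 0.537 and 0.963 CPM on 10% fat. In CAST/EiJ it had 1.46, 0.957, 0.917 and 1.39 CPM on 44% fat and 1.71, 1.35 and 0.997 CPM on 10% fat, and in C57BL/6J 2.99, 2.98, 3.04 and 3.02 CPM on 44% fat and 1.99, 2.73, 2.23 and 2.43 CPM on 10% fat. All C57BL/6J libraries lay above the others, and NZO/HlLtJ and CAST/EiJ overlapped. H2-Q7 was 3.62-fold lower in NZO/HlLtJ than in C57BL/6J (log2 fold change -1.86, SE 0.14, adjusted p = 6.1e-12), 2.09-fold lower in CAST/EiJ than in C57BL/6J (-1.06, SE 0.14, adjusted p = 1.37e-07) and lower in NZO/HlLtJ than CAST/EiJ (-0.80, SE 0.16, adjusted p = 4.69e-05). In the C57BL/6J reference, the promoter of H2-Q7 shown above holds all 4 motifs, as do those of H2-K1 and H2-D1. Any part of these motifs in the strain levels was not tested.

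H2-Q6 averaged 0.400 ± 0.135 CPM in NZO/HlLtJ, 0.315 ± 0.166 CPM in CAST/EiJ and 1.36 ± 0.205 CPM in C57BL/6J, whose libraries again all lay above the others. H2-Q6 over C57BL/6J was -1.78 (SE 0.20, adjusted p = 8.94e-09) in NZO/HlLtJ and -2.17 (SE 0.22, adjusted p = 5.68e-10) in CAST/EiJ. H2-Q4 had the reverse standing of CAST/EiJ, with 1.75 ± 0.508 CPM in NZO/HlLtJ, 3.42 ± 0.554 CPM in CAST/EiJ and 2.56 ± 0.467 CPM in C57BL/6J, and all 3 comparisons passed (-0.98, -0.55 and 0.43). Within 44% fat the H2-Q4 calls against C57BL/6J were lost (-0.42 for NZO/HlLtJ, adjusted p = 0.0639, and 0.28 for CAST/EiJ, adjusted p = 0.184). H2-Q6 and H2-Q7 share 10.8% and 11.98% of their windows with other genes, H2-Q4 2.16%, so the split of reads among the Q genes is uncertain.

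H2-Bl, annotated as a polymorphic pseudogene, was detected mainly in CAST/EiJ. It had 0.0540, 0.0234, 0.118 and 0.0279 CPM in NZO/HlLtJ on 44% fat and 0.0282, 0, 0 and 0.0482 CPM on 10% fat. In CAST/EiJ it had 0.650, 0.672, 0.621 and 0.464 CPM on 44% fat and 0.480, 0.721 and 0.512 CPM on 10% fat, and in C57BL/6J 0.164, 0, 0.118 and 0.116 CPM on 44% fat and 0.0785, 0.241, 0.0612 and 0.276 CPM on 10% fat. All CAST/EiJ libraries were above the rest, and the log2 fold change of H2-Bl was 2.20 (SE 0.37, adjusted p = 7.95e-06) for CAST/EiJ over C57BL/6J and -4.04 (SE 0.45, adjusted p = 5.76e-09) for NZO/HlLtJ over CAST/EiJ. NZO/HlLtJ over C57BL/6J was -1.84 (SE 0.55, adjusted p = 0.00547), from totals of 11 and 34 counts. That H2-Bl value was -2.83 within 10% fat and -0.86 within 44% fat, where it did not pass (adjusted p = 0.35).

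H2-M10.2, of a family known from sensory neurons of the vomeronasal organ, totalled 3 counts in NZO/HlLtJ, 112 in CAST/EiJ and 27 in C57BL/6J. Its CAST/EiJ libraries ranged from 0.103 to 0.552 CPM, those of C57BL/6J from 0.0262 to 0.245 CPM, and 6 of 8 NZO/HlLtJ libraries were at 0. As a ratio of counts scaled to library size, H2-M10.2 was 40.2-fold lower in NZO/HlLtJ than CAST/EiJ (exact 95% interval 13.4 to 198) and 10.2-fold lower than in C57BL/6J (3.15 to 52.8). These intervals cover counting error only. CAST/EiJ over C57BL/6J was 1.89 (SE 0.44, adjusted p = 0.000575).

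H2-M3, which presents formylated bacterial peptides, averaged 1.11 ± 0.131 CPM in NZO/HlLtJ, 0.391 ± 0.0988 CPM in CAST/EiJ and 0.939 ± 0.217 CPM in C57BL/6J. CAST/EiJ lay below every library of the other strains (1.51, SE 0.19, for NZO/HlLtJ over CAST/EiJ and -1.28, SE 0.20, for CAST/EiJ over C57BL/6J). H2-M5 averaged 1.07 ± 0.186, 0.710 ± 0.222 and 1.85 ± 0.176 CPM in NZO/HlLtJ, CAST/EiJ and C57BL/6J, and all 3 comparisons passed; within 44% fat H2-M5 in NZO/HlLtJ over CAST/EiJ did not (0.47, adjusted p = 0.0633). H2-Q10, known as a secreted class I protein of the liver, reached only 0.320 CPM in NZO/HlLtJ, 0.102 CPM in CAST/EiJ and 0.109 CPM in C57BL/6J, and was higher in NZO/HlLtJ than in both (1.60, SE 0.41, and 1.70, SE 0.41), with the call over C57BL/6J lost within 10% fat (1.20, adjusted p = 0.0659). H2-Q2 and H2-Q5 stayed at or below 0.306 CPM in every strain mean. H2-Q2 was lower in NZO/HlLtJ than in C57BL/6J (-1.12, adjusted p = 0.0181), a call lost without C57BL/6J 10% fat replicate 2 (-0.95, adjusted p = 0.06) and within 10% fat (-0.63, adjusted p = 0.41). H2-Q5 was lower in CAST/EiJ than in C57BL/6J (-1.49, adjusted p = 0.017), but not within 10% fat (-1.18, adjusted p = 0.24). H2-Q2 in NZO/HlLtJ over CAST/EiJ (-0.94, adjusted p = 0.0432) lost its call without any 1 of 9 libraries (omissions of 1 library gave -1.22 to -0.75), within either diet (adjusted p = 0.107 on 10% fat and 0.249 on 44% fat), with no filter on low counts (0.0544) and in DESeq2 (0.0518). The libraries were CAST/EiJ 10% fat replicates 1 and 2 and 44% fat replicates 1 and 4, NZO/HlLtJ 10% fat replicates 2, 3 and 4 and 44% fat replicates 2 and 4.

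**Figure D3:**
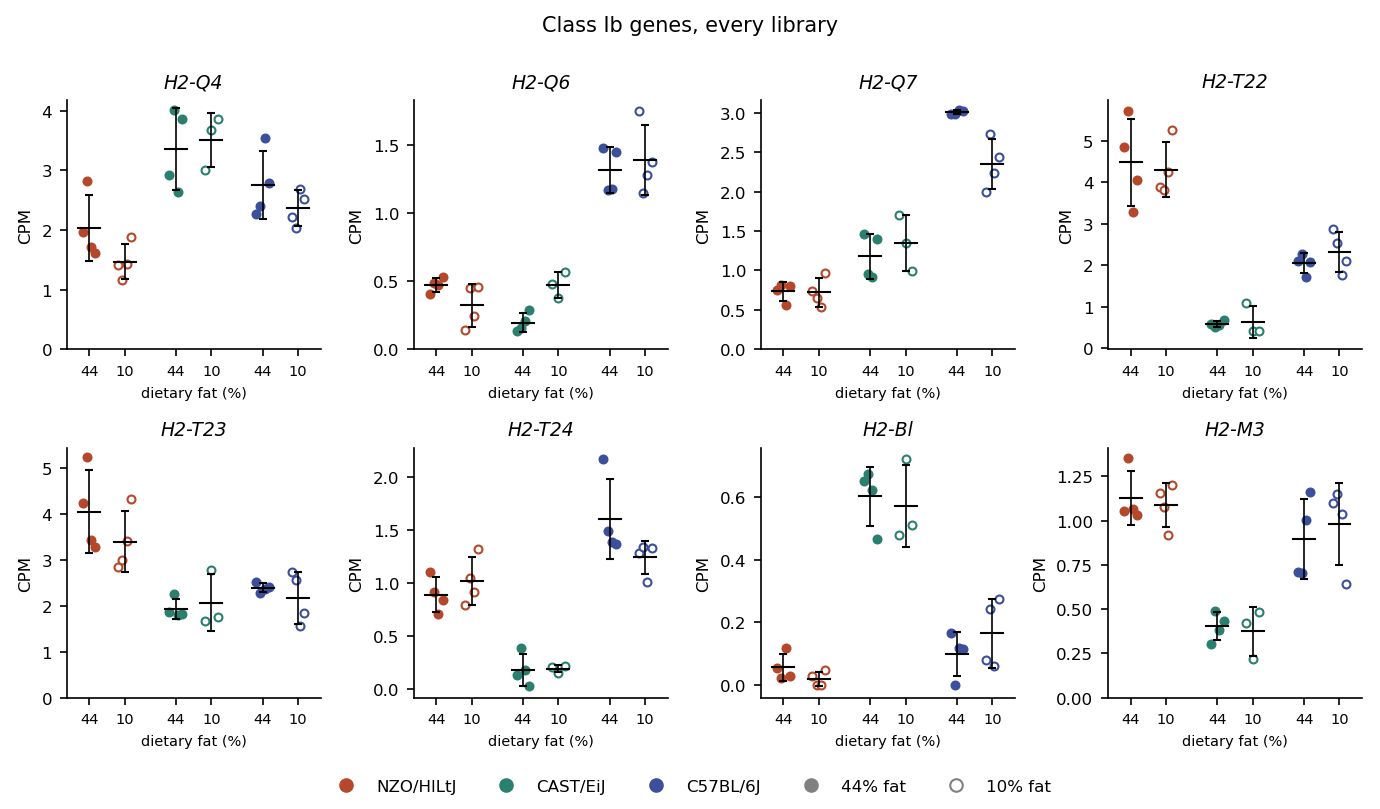
Level (y axis, CPM) of 8 class Ib genes in each library of NZO/HlLtJ, CAST/EiJ and C57BL/6J (x axis); filled points are 44% fat and open points 10% fat, the bar is the mean and the error bar the SD. H2-Q6 and H2-Q7 are highest in C57BL/6J, H2-T22 and H2-T23 in NZO/HlLtJ, and H2-Bl in CAST/EiJ.

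Class II presenting chains pair as I-A (H2-Aa with H2-Ab1) and I-E (the E alpha chain, listed as H2-Ea-ps, with H2-Eb1). Of these 4 chains, 2 were higher and none lower in NZO/HlLtJ than CAST/EiJ, 1 was higher and 1 lower in NZO/HlLtJ than in C57BL/6J, and 1 was higher and 2 were lower in CAST/EiJ than in C57BL/6J. All genes had shares of 39.6% and 32.5%, 30.4% and 28.7%, and 32.7% and 34.1% higher and lower there. The clearest difference was H2-Ea-ps (chr17:34342933-34344643, minus strand, a polymorphic pseudogene in the annotation), a gene known to be silent in some mouse haplotypes, that of C57BL/6 among them. It had 2.22, 4.18, 1.66 and 1.23 CPM in NZO/HlLtJ on 44% fat and 0.678, 1.76, 1.12 and 1.73 CPM on 10% fat. In CAST/EiJ it had 0.186, 0.543, 0.118 and 0.435 CPM on 44% fat and 0.300, 0.188 and 0.296 CPM on 10% fat, while all 8 C57BL/6J libraries were at 0. The strains did not overlap. With 569 counts in NZO/HlLtJ and 81 in CAST/EiJ against 0 in C57BL/6J, H2-Ea-ps was at least 163-fold higher in NZO/HlLtJ and at least 26.5-fold higher in CAST/EiJ than the 0.0111 CPM that 3 counts over all C57BL/6J libraries would give. NZO/HlLtJ exceeded CAST/EiJ by a log2 fold change of 2.61 (SE 0.33, adjusted p = 3.29e-07).

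Its partner H2-Eb1 was transcribed in all strains. It had 5.13, 10.8, 4.06 and 4.65 CPM in NZO/HlLtJ on 44% fat and 2.91, 4.14, 2.77 and 4.86 CPM on 10% fat. In CAST/EiJ it had 1.42, 2.04, 2.22 and 2.26 CPM on 44% fat and 2.19, 2.32 and 2.07 CPM on 10% fat, and in C57BL/6J 4.22, 3.98, 7.40 and 6.01 CPM on 44% fat and 6.96, 7.18, 2.69 and 4.41 CPM on 10% fat. CAST/EiJ lay below every other library, and NZO/HlLtJ and C57BL/6J overlapped. H2-Eb1 differed in NZO/HlLtJ over CAST/EiJ by 1.21 (SE 0.22, adjusted p = 2.1e-05; within 10% fat 0.74, adjusted p = 0.057, not a call) and in CAST/EiJ over C57BL/6J by -1.38 (SE 0.22, adjusted p = 3.48e-06), and did not pass in NZO/HlLtJ over C57BL/6J (-0.17, SE 0.20, adjusted p = 0.466). Per kb, H2-Ea-ps made up 40.2% ± 5.43 of the sum of H2-Ea-ps and H2-Eb1 in NZO/HlLtJ and 20.5% ± 8.0 in CAST/EiJ, against 0% in C57BL/6J.

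The I-A chains moved apart from each other. H2-Ab1 had 3.22, 6.47, 2.22 and 1.56 CPM in NZO/HlLtJ on 44% fat and 1.16, 2.49, 1.54 and 2.41 CPM on 10% fat. In CAST/EiJ it had 1.96, 3.0, 2.34 and 2.29 CPM on 44% fat and 2.97, 2.66 and 3.40 CPM on 10% fat, and in C57BL/6J 5.67, 6.05, 8.73 and 6.79 CPM on 44% fat and 9.60, 8.17, 4.49 and 4.96 CPM on 10% fat. C57BL/6J was above every CAST/EiJ library and above 7 of 8 NZO/HlLtJ libraries. H2-Ab1 over C57BL/6J was -1.42 (SE 0.21, adjusted p = 1.26e-06) in NZO/HlLtJ and -1.35 (SE 0.22, adjusted p = 3.79e-06) in CAST/EiJ, and NZO/HlLtJ over CAST/EiJ was -0.07 (SE 0.23, adjusted p = 0.793).

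H2-Aa showed no such order, with 4.75 ± 2.46 CPM in NZO/HlLtJ, 6.00 ± 0.778 CPM in CAST/EiJ and 5.70 ± 1.55 CPM in C57BL/6J, overlapping libraries throughout and adjusted p-values of 0.0951, 0.181 and 0.779. H2-Ab1 made up 43.9% ± 6.03 of the I-A sum per kb in NZO/HlLtJ (36.5 to 51.2%), 39.6% ± 6.19 in CAST/EiJ (29.0 to 48.4%) and 63.9% ± 1.42 in C57BL/6J (61.8 to 65.5%), so all C57BL/6J libraries lay above all others. The 4 presenting chains shared none of their 100-base windows with other genes of the annotation.

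**Figure D4:**
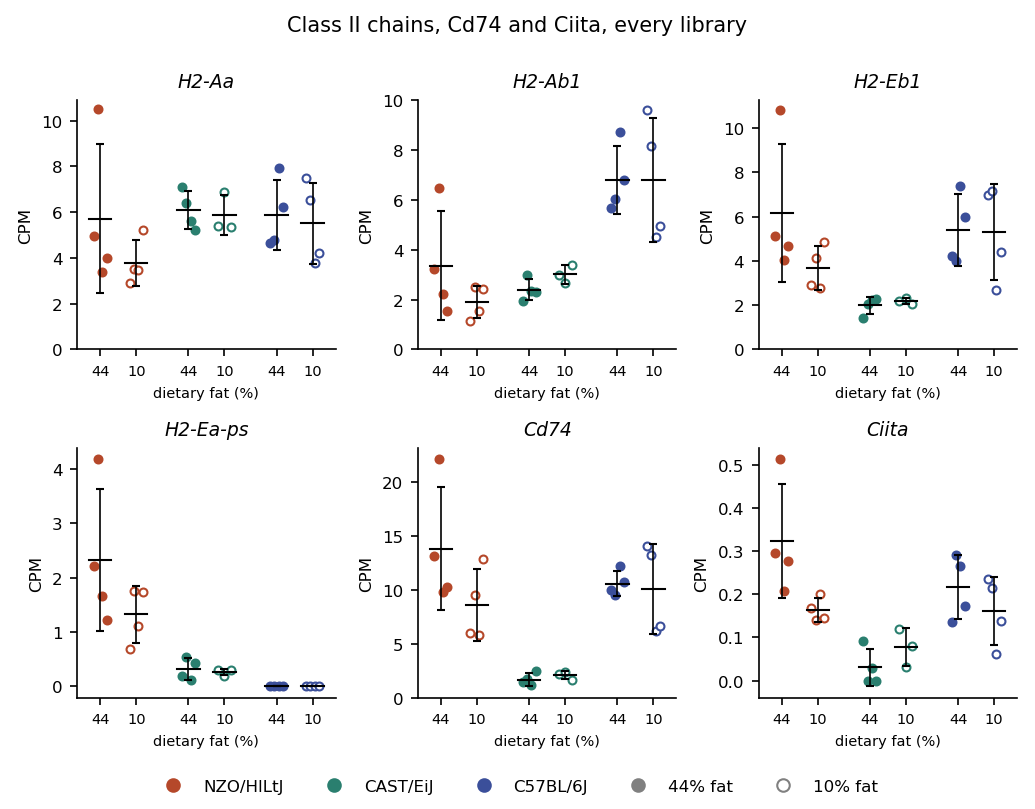
Level (y axis, CPM) of the class II presenting chains H2-Aa, H2-Ab1, H2-Eb1 and H2-Ea-ps, the chaperone Cd74 and the transactivator Ciita in each library of NZO/HlLtJ, CAST/EiJ and C57BL/6J (x axis); filled points are 44% fat and open points 10% fat, the bar is the mean and the error bar the SD. H2-Ea-ps is at 0 in all 8 C57BL/6J libraries, and Cd74 is lowest in CAST/EiJ.

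Cd74, the invariant chain that guides class II molecules to the peptide-loading compartment, had 13.2, 22.1, 9.77 and 10.2 CPM in NZO/HlLtJ on 44% fat and 6.01, 9.55, 5.82 and 12.9 CPM on 10% fat. In CAST/EiJ Cd74 had 1.41, 1.68, 1.15 and 2.47 CPM on 44% fat and 2.16, 2.41 and 1.64 CPM on 10% fat, and in C57BL/6J 9.97, 9.47, 12.2 and 10.7 CPM on 44% fat and 14.1, 13.2, 6.21 and 6.66 CPM on 10% fat. All CAST/EiJ libraries lay below the others. Cd74 in NZO/HlLtJ exceeded CAST/EiJ 5.91-fold (log2 fold change 2.56, SE 0.23, adjusted p = 5.92e-11), CAST/EiJ was 5.63-fold below C57BL/6J (-2.49, SE 0.23, adjusted p = 1.32e-10), and NZO/HlLtJ and C57BL/6J did not differ past the threshold (0.07, SE 0.18, adjusted p = 0.759).

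H2-DM is the editor that exchanges the peptides of class II molecules. H2-DMa averaged 6.68 ± 0.402 CPM in NZO/HlLtJ, 6.34 ± 0.700 CPM in CAST/EiJ and 5.65 ± 0.463 CPM in C57BL/6J, and passed in NZO/HlLtJ over C57BL/6J (0.24, SE 0.07, adjusted p = 0.00399; within 44% fat 0.23, adjusted p = 0.0586). The beta chains went opposite ways: H2-DMb2 averaged 0.241, 0.527 and 0.120 CPM in NZO/HlLtJ, CAST/EiJ and C57BL/6J, and H2-DMb1 1.73, 1.38 and 2.06 CPM. In CAST/EiJ over C57BL/6J H2-DMb2 was 2.14 (SE 0.38, adjusted p = 1.41e-05) and H2-DMb1 -0.59 (SE 0.14, adjusted p = 0.000445). In NZO/HlLtJ over CAST/EiJ they were -1.13 (SE 0.33, adjusted p = 0.00361) and 0.34 (SE 0.14, adjusted p = 0.0306), and within 44% fat neither passed (-0.91 and 0.26, adjusted p = 0.0751 and 0.214). These near-identical neighbours share 10.3% and 11.3% of their 100-base windows, so their counts may be traded between them.

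Some of the smaller DM calls rested on single libraries. H2-DMb2 in NZO/HlLtJ over C57BL/6J (1.01, adjusted p = 0.0316) lost its call without any 1 of 6 libraries (omissions of 1 library gave 0.80 to 1.46) and within either diet (1.31 on 10% fat and 0.71 on 44% fat, adjusted p = 0.0844 and 0.27). The libraries were NZO/HlLtJ 44% fat replicate 1 and 10% fat replicates 1 and 4, and C57BL/6J 44% fat replicate 1 and 10% fat replicates 3 and 4. H2-DMb1 in NZO/HlLtJ over CAST/EiJ lost its call without any 1 of 7 (omissions gave 0.27 to 0.42), within 10% fat (0.41, adjusted p = 0.087), with upper quartile scaling (0.29, adjusted p = 0.0616), in DESeq2 (0.31, adjusted p = 0.0692) and in limma on the log2 table (adjusted p = 0.0559). The libraries were NZO/HlLtJ 44% fat replicate 2 and 10% fat replicates 1 and 3, and CAST/EiJ 44% fat replicates 1 and 3 and 10% fat replicates 1 and 2. H2-Ob, a chain of the DM inhibitor, had too few counts to test.

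CAST/EiJ had the most Nlrc5 and the least Ciita of the strains, the transactivators among the members. Nlrc5, the NOD-like receptor that activates class I promoters, had 9.92, 10.3, 8.05 and 10.6 CPM in NZO/HlLtJ on 44% fat and 9.26, 9.49, 7.38 and 9.10 CPM on 10% fat. In CAST/EiJ Nlrc5 had 15.0, 17.1, 13.4 and 17.9 CPM on 44% fat and 15.5, 20.8 and 11.4 CPM on 10% fat, and in C57BL/6J 9.04, 8.54, 8.05 and 8.76 CPM on 44% fat and 8.08, 8.09, 9.45 and 7.21 CPM on 10% fat. Every CAST/EiJ library lay above the other strains, which overlapped. Nlrc5 in CAST/EiJ over C57BL/6J was 0.91 (SE 0.10, adjusted p = 1.94e-09) and in NZO/HlLtJ over CAST/EiJ -0.78 (SE 0.09, adjusted p = 2.73e-08), so the strain with the least H2-K1, H2-D1, B2m and Psmb8 had the most Nlrc5.

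Ciita, the master regulator of class II genes, was near the limit of detection, with totals of 76 counts in NZO/HlLtJ, 16 in CAST/EiJ and 52 in C57BL/6J. It averaged 0.244 ± 0.123, 0.0506 ± 0.0473 and 0.190 ± 0.0767 CPM, with 2 CAST/EiJ libraries at 0. Ciita in NZO/HlLtJ over CAST/EiJ was 1.98 (SE 0.45, adjusted p = 0.0003) and in CAST/EiJ over C57BL/6J -1.69 (SE 0.47, adjusted p = 0.00231). Without CAST/EiJ 44% fat replicate 1 these values were 2.87 and -2.58, and within 10% fat they did not pass (1.05 and -1.06, adjusted p = 0.185 and 0.199).

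H2-Ke6 lies in the MHC but encodes a hydroxysteroid dehydrogenase and has no role in antigen presentation. It averaged 7.39 ± 0.734 CPM in NZO/HlLtJ, 8.41 ± 0.785 CPM in CAST/EiJ and 5.62 ± 0.776 CPM in C57BL/6J, and was higher than C57BL/6J in both (0.40, SE 0.09, and 0.59, SE 0.09). H2-Ke6 in NZO/HlLtJ over CAST/EiJ was -0.19 (adjusted p = 0.0473), and this call was lost without any 1 of 12 libraries: NZO/HlLtJ 44% fat replicates 2, 3 and 4 and 10% fat replicates 1, 2 and 3, CAST/EiJ 44% fat replicates 1, 3 and 4 and 10% fat replicates 1 and 2, and C57BL/6J 44% fat replicate 2. Over all omissions of 1 library the H2-Ke6 value ran from -0.23 to -0.16, and it passed within neither diet (adjusted p = 0.246 on 10% fat and 0.114 on 44% fat), nor with no filter on low counts (0.0512) or the run of sample numbers as a covariate (0.0597). In the annotation 61.6% of its windows are shared with the readthrough gene Gm20427, so its counts are uncertain. H2-M6-ps, a pseudogene, averaged at most 0.225 CPM and passed in no strain comparison. The other members were too low to test: H2-K2, H2-M11, H2-Ob, H2-T3, H2-T10, H2-Q1, H2-M10.3, H2-M10.4 and H2-M10.5-ps1 had strain means of at most 0.202 CPM. In all, 28 of the 43 members reached a mean of 0.5 CPM in a strain and 15 did not.

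Summed by class, classical class I reached 50.8 ± 6.52 CPM in NZO/HlLtJ, 20.1 ± 1.67 CPM in CAST/EiJ and 64.2 ± 5.30 CPM in C57BL/6J. Class Ib summed to 15.1 ± 2.44, 10.5 ± 0.972 and 16.4 ± 1.17 CPM, and class II presenting chains to 14.1 ± 7.65, 11.0 ± 0.743 and 17.9 ± 5.07 CPM. These sums hold genes of unlike direction: the class II sums overlapped between all strains, while the classical class I sum of CAST/EiJ (18.1 to 22.02 CPM) lay below the lowest NZO/HlLtJ library (41.3 CPM) and the lowest C57BL/6J library (57.5 CPM).

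Genes beside the members on chromosome 17 differed in both directions. Within the interval from Tapbp to H2-M3 the table holds 156 other genes, of which 117 were tested. Of these, 67.5% passed in NZO/HlLtJ over CAST/EiJ (34 higher and 45 lower), against 72.1% of all genes. In NZO/HlLtJ over C57BL/6J 62.4% passed (35 higher and 38 lower), against 59.1%. In CAST/EiJ over C57BL/6J 57.3% passed (36 higher and 31 lower), against 66.8%. The median log2 fold changes of the 117 genes were -0.02, 0.05 and 0.03, and those of the 29 members tested in the same interval were 0.47, -0.02 and -0.48.

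Genes that supply peptides to class I, outside the members, were mostly higher in NZO/HlLtJ than in CAST/EiJ. Of 10 tested, 8 were higher and 2 lower in NZO/HlLtJ than CAST/EiJ, and 4 higher and 3 lower than in C57BL/6J. In CAST/EiJ 1 was higher and 4 lower than in C57BL/6J. Over all genes tested, 39.6% were higher and 32.5% lower in NZO/HlLtJ than CAST/EiJ, and 30.4% and 28.7% against C57BL/6J. In CAST/EiJ against C57BL/6J these shares were 32.7% and 34.1%. The same shares stand against the lists of genes and markers that follow. Psme1 and Psme2, the subunits of the interferon-inducible proteasome activator, averaged 14.8 ± 2.38 and 11.6 ± 2.00 CPM in NZO/HlLtJ, 7.96 ± 0.780 and 7.37 ± 0.891 CPM in CAST/EiJ, and 8.18 ± 0.825 and 7.42 ± 0.833 CPM in C57BL/6J. Psme1 exceeded CAST/EiJ by 0.88 (SE 0.09) and C57BL/6J by 0.85 (SE 0.09) in NZO/HlLtJ, and Psme2 by 0.65 (SE 0.09) and 0.65 (SE 0.09). Tapbpl, a tapasin relative that edits peptides, was 4.21 ± 0.636, 1.05 ± 0.215 and 3.89 ± 0.857 CPM in NZO/HlLtJ, CAST/EiJ and C57BL/6J, which is 2.00 (SE 0.14, adjusted p = 4.69e-13) for NZO/HlLtJ over CAST/EiJ and -1.89 (SE 0.14, adjusted p = 2.39e-12) for CAST/EiJ over C57BL/6J. Erap1, which trims peptides in the endoplasmic reticulum, was higher in NZO/HlLtJ than in C57BL/6J by 0.52 (SE 0.07), and the chaperone Canx and the activator Psme3 were lower in CAST/EiJ than in C57BL/6J (-0.33 and -0.23). Of the 3 standard catalytic subunits that the immunoproteasome replaces, 2 were higher and 1 lower in NZO/HlLtJ than CAST/EiJ, 1 was higher in NZO/HlLtJ than in C57BL/6J, and 1 was higher and 2 lower in CAST/EiJ than in C57BL/6J.

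Of 8 tested genes that prepare or turn over class II, 6 were higher in NZO/HlLtJ than in CAST/EiJ and 7 were higher in NZO/HlLtJ than in C57BL/6J, with none lower, and 3 were higher and 2 lower in CAST/EiJ than in C57BL/6J. Ctss, the cathepsin that cuts the invariant chain, averaged 5.70 ± 0.630, 2.62 ± 0.331 and 4.31 ± 0.614 CPM in NZO/HlLtJ, CAST/EiJ and C57BL/6J (1.12, SE 0.10, for NZO/HlLtJ over CAST/EiJ and -0.72, SE 0.11, for CAST/EiJ over C57BL/6J). March8, a ubiquitin ligase that can mark class II for removal, was 34.8 ± 1.83, 24.2 ± 2.03 and 21.5 ± 1.26 CPM. Ctsl, another cathepsin, was 309 ± 49.2, 207 ± 6.99 and 264 ± 14.7 CPM.

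Of 7 factors that bind the shared promoter elements of MHC genes, 4 were higher and 2 lower in NZO/HlLtJ than CAST/EiJ, 2 higher and 1 lower in NZO/HlLtJ than in C57BL/6J, and 3 higher and 2 lower in CAST/EiJ than in C57BL/6J. Rfxank and Rfxap, subunits of the RFX complex, averaged 7.87 ± 0.702 and 10.1 ± 0.911 CPM in NZO/HlLtJ, 5.07 ± 0.729 and 7.66 ± 0.714 CPM in CAST/EiJ, and 9.29 ± 0.559 and 9.40 ± 0.377 CPM in C57BL/6J. Nfya, of the NF-Y complex that binds Y boxes, was 31.1 ± 2.44, 37.3 ± 1.54 and 31.3 ± 1.75 CPM, higher in CAST/EiJ than in C57BL/6J by 0.25 (SE 0.05).

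Interferons raise class I and class II transcription in many cells. Of 13 genes of interferon signalling, 8 were higher and 2 lower in NZO/HlLtJ than CAST/EiJ, 11 higher and 1 lower in NZO/HlLtJ than in C57BL/6J, and 6 higher and 6 lower in CAST/EiJ than in C57BL/6J. Ifngr2, a chain of the interferon-gamma receptor, averaged 27.6 ± 2.55, 9.77 ± 0.652 and 23.4 ± 1.35 CPM in NZO/HlLtJ, CAST/EiJ and C57BL/6J, and Stat2 9.14 ± 0.708, 3.77 ± 0.513 and 7.98 ± 0.723 CPM. The kinases Jak1 (80.8, 80.1 and 54.5 CPM) and Jak2 (17.7, 12.7 and 10.8 CPM) were higher in NZO/HlLtJ than in C57BL/6J by 0.57 (SE 0.04) and 0.72 (SE 0.06).

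Markers of immune, endothelial and Leydig cells also differed between strains, and their part in the member differences was not tested. All 16 macrophage markers were in the table, and their summed level was 318 to 352 CPM in NZO/HlLtJ, 321 to 352 CPM in CAST/EiJ and 315 to 340 CPM in C57BL/6J. Aif1 is the most abundant of them at 189, 212 and 212 CPM; without it, a choice made after seeing the values, the ranges were 130 to 181, 115 to 128 and 108 to 134 CPM. Of the 16, 11 were higher and 2 lower in NZO/HlLtJ than CAST/EiJ, 10 higher and 1 lower in NZO/HlLtJ than in C57BL/6J, and 4 higher and 4 lower in CAST/EiJ than in C57BL/6J. Of 8 markers of T and natural killer cells, 6 were in the table and summed to 5.61 to 6.98 CPM in NZO/HlLtJ, 2.07 to 2.73 CPM in CAST/EiJ and 2.74 to 4.18 CPM in C57BL/6J. The 5 B cell markers summed to 16.6 to 22.6, 9.41 to 11.6 and 17.4 to 23.2 CPM, nearly all of it Pax5, while the B cell receptor chains Cd79a and Cd79b averaged at most 0.1 CPM. Of 7 dendritic cell markers 6 were in the table and summed to 16.5 to 19.8, 63.4 to 72.2 and 19.2 to 21.4 CPM, mostly Zbtb46. Of the other lists, the 8 endothelial markers summed to 56.4 to 68.8 CPM in NZO/HlLtJ, 42.5 to 50.8 CPM in CAST/EiJ and 54.9 to 67.7 CPM in C57BL/6J, with every CAST/EiJ library below all others. The 6 Leydig cell markers summed to 747 to 1191 CPM in NZO/HlLtJ, 421 to 620 CPM in CAST/EiJ and 472 to 751 CPM in C57BL/6J.

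The diet comparisons ask whether the members respond to the diet high in fat and sugar. No member passed the edgeR test in any of them. In NZO/HlLtJ 0 of 34 members passed, against 0.00437% of all genes, in CAST/EiJ 0, against 0% of all genes, and in C57BL/6J 0, against 0.00874%. Averaged over strains, and in the test of whether the diet effect differs between strains, 0 members and 0% of all genes passed. At an unadjusted p under 0.05, edgeR had 6 members in NZO/HlLtJ (6.8% of all genes), 1 in CAST/EiJ (4.11%), 0 in C57BL/6J (2.93%), 0 for the average (3.92%) and 2 for the difference between strains (4.9%). DESeq2 found 0 members at an adjusted p under 0.05 and 4, 2, 0, 0 and 1 at an unadjusted one, in that order, and limma on the deposited log2 table found 0 and 4, 1, 2, 1 and 2.

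In NZO/HlLtJ 5 of those 6 members belong to class II. These were Cd74 (log2 fold change 0.70 for 44% over 10% fat, SE 0.26, unadjusted p = 0.0118), H2-Ab1 (0.85, SE 0.31), H2-Eb1 (0.76, SE 0.28), H2-Ea-ps (0.82, SE 0.37) and H2-Aa (0.60, SE 0.26), with adjusted p-values from 0.72 to 0.723. The other was H2-Q4 (0.47, SE 0.20). NZO/HlLtJ 44% fat replicate 2 had the highest level of each of these 5 class II genes in its strain (22.1 CPM of Cd74, 6.47 CPM of H2-Ab1), and the other 3 libraries on 44% fat overlapped with those on 10% fat. Other class II chains did not all share this direction. In NZO/HlLtJ H2-DMa averaged 6.41 CPM on 44% fat and 6.95 CPM on 10% fat, H2-DMb1 1.66 and 1.80 CPM, and H2-DMb2 0.274 and 0.209 CPM. Without replicate 2 the values were 0.37 for Cd74, 0.30 for H2-Ab1, 0.33 for H2-Eb1, 0.36 for H2-Ea-ps and 0.12 for H2-Aa. Without NZO/HlLtJ 10% fat replicate 4, the control library with the most Cd74, Cd74 was 0.97 (adjusted p = 0.203) and H2-Ab1 0.99.

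Sums of macrophage markers without Aif1 were 136 to 172 CPM in NZO/HlLtJ on 44% fat and 130 to 181 CPM on 10% fat. With Aif1 they were 330 to 352 and 318 to 349 CPM. Those of dendritic cell markers were 17.3 to 19.8 and 16.5 to 18.4 CPM, of which Zbtb46 averaged 12.2 and 12.7 CPM. These ranges overlapped between the diets, but sums led by 1 gene can hide a change in cells. The part of cell content in the diet values was not tested. The sample numbers of the labels fall into 3 runs, which no label calls a batch. Within the run that holds 2 NZO/HlLtJ libraries of each diet, Cd74 was 13.2 and 22.1 CPM on 44% fat and 6.01 and 9.55 CPM on 10% fat. The 22.1 CPM is that of replicate 2. All other NZO/HlLtJ libraries on 44% fat fell in run 2 and all others on 10% fat in run 3. For these, diet and run cannot be told apart, and their Cd74 levels overlapped between the diets. With the run as a covariate over all libraries Cd74 was 0.69 and H2-Ab1 0.85, and neither passed.

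In CAST/EiJ the member with the smallest p was H2-Q6, which had 0.133, 0.155, 0.207 and 0.290 CPM on 44% fat and 0.480, 0.376 and 0.566 CPM on 10% fat. Its 44% fat libraries all lay below the 10% fat ones, and the log2 fold change was -1.34 (SE 0.36, in edgeR unadjusted p = 0.000896, adjusted p = 0.663). Such a gap was not particular to H2-Q6. Tap2 in CAST/EiJ ran from 1.51 to 1.97 CPM on 44% fat and 2.07 to 2.34 CPM on 10% fat. Ciita in NZO/HlLtJ ran from 0.207 to 0.514 CPM on 44% fat and 0.142 to 0.201 CPM on 10% fat, from totals of 50 and 26 counts. It was not among the members with an unadjusted p under 0.05 in edgeR. H2-Q7 and H2-T24 in C57BL/6J did not overlap between diets either, with 44% fat higher. The share of all genes with such a gap was not counted. In NZO/HlLtJ, H2-Q6 averaged 0.475 ± 0.0518 CPM on 44% fat and 0.324 ± 0.157 CPM on 10% fat, and in C57BL/6J 1.32 ± 0.168 and 1.39 ± 0.258 CPM (n = 4 each). The diet effect on H2-Q6 differed between strains at an unadjusted p of 0.00183 and that on H2-Ab1 at 0.0375, with adjusted p-values of 0.91 and 0.943. The classical class I chains kept to their strain levels on either diet: H2-K1 averaged 23.1 ± 2.70 CPM on 44% fat and 22.5 ± 3.36 CPM on 10% fat in NZO/HlLtJ, 15.7 ± 1.40 and 15.4 ± 1.46 CPM in CAST/EiJ, and 49.0 ± 2.83 and 47.6 ± 4.20 CPM in C57BL/6J. H2-D1 averaged 29.7 ± 4.50 and 26.5 ± 2.94 CPM in NZO/HlLtJ, 4.38 ± 0.399 and 4.81 ± 0.414 CPM in CAST/EiJ, and 15.99 ± 1.44 and 15.9 ± 2.72 CPM in C57BL/6J. A p that misses the threshold does not show that diet had no effect.

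**Figure D5:**
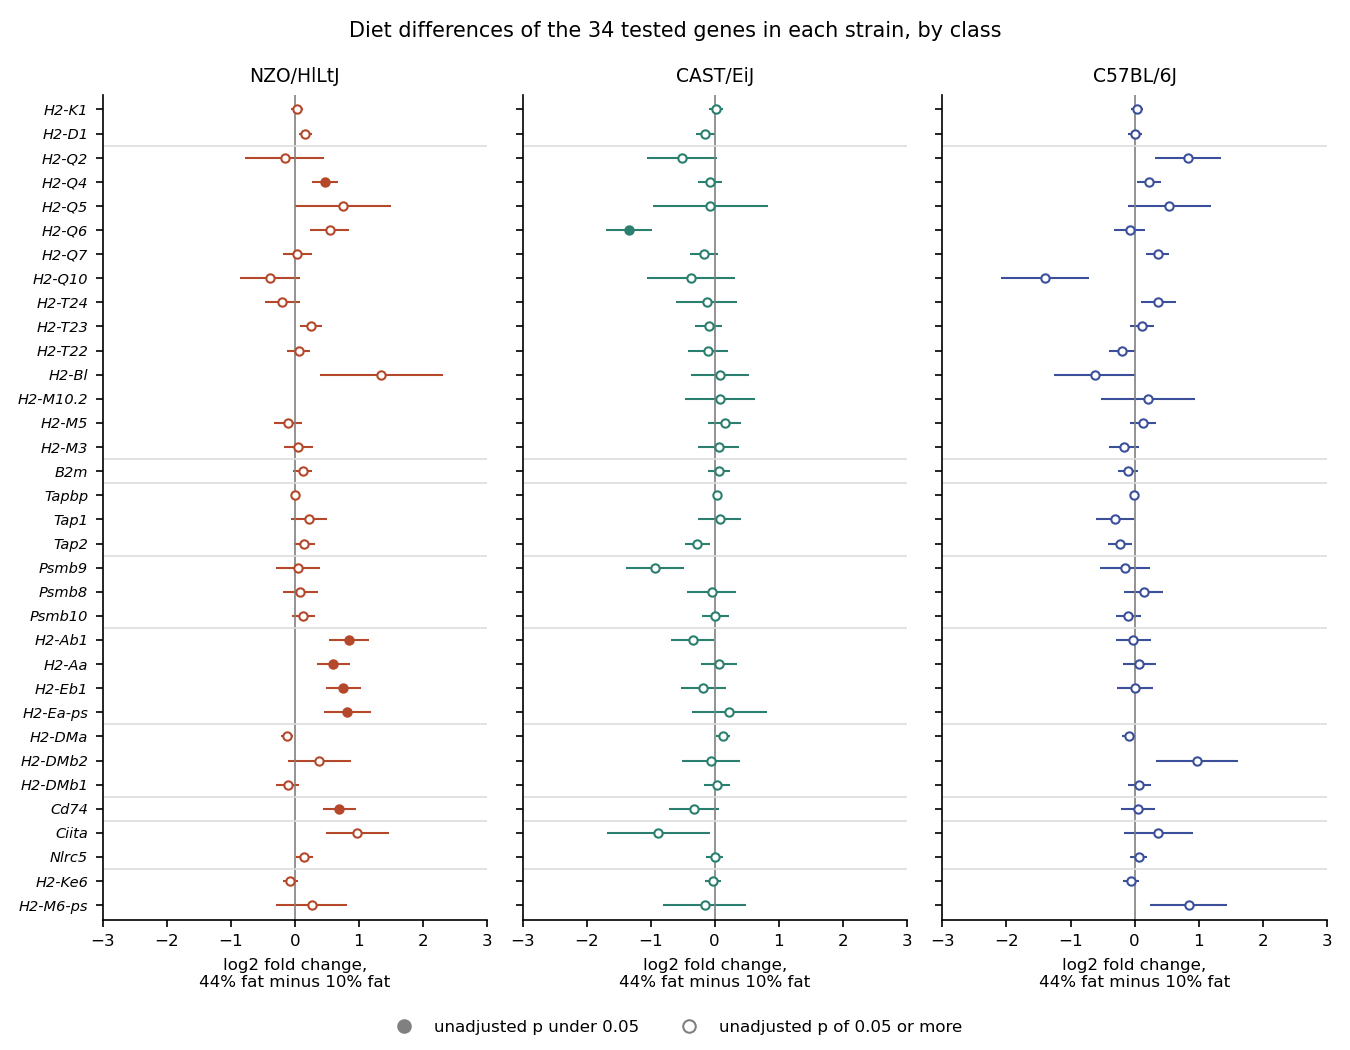
Log2 fold changes for 44% fat over 10% fat (x axis) of the tested members (y axis, by class) in NZO/HlLtJ, CAST/EiJ and C57BL/6J, with the standard error as bars. Filled points have an unadjusted p under 0.05 and none has an adjusted p under 0.05; H2-Ea-ps in C57BL/6J and H2-M10.2 in NZO/HlLtJ, at or near 0 counts, are not drawn.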

How the data were processed

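Testis RNA of 23 male mice was sequenced. The count table, as deposited, holds estimated counts for each gene (23.1% of values are not whole numbers at a tolerance of 1e-06); a second table deposited by the authors gives log2 values after a variance-stabilising transformation (7.67 to 19.3). GRCm38 and DESeq2 are named per the submitters' processing notes. The aligner, counter, annotation release and treatment of variants were not given in the sources used here. Before rounding, each gene in the table has an estimate above 0 in at least 12 libraries, some of them far under 1 count, so a gene expressed in 1 strain can be missing.

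Estimated counts were rounded, low genes removed with filterByExpr on the 6 groups, and 22873 genes fitted together in edgeR 4.0.16 (R 4.3.3) with TMM scaling and its quasi-likelihood F test, 1 mean per group, Benjamini-Hochberg adjustment over all genes and a threshold of 0.05. Strain comparisons average both diets, and values within 1 diet are contrasts in the same fit. Libraries at 0 are so after rounding. Alternatives used DESeq2 1.42.0 on rounded counts, limma 3.58.1 on the log2 table, other scaling and filters, subsets and omissions. Fits were tested on simulated data. Levels are TMM-scaled CPM with the SD over libraries. Levels per kb divide by the length of all exons of a gene in GENCODE M21, joined over its transcripts, which can exceed the length of any 1 transcript. Tables and figures used python 3.11.15, pandas 2.3.3, numpy 2.4.6, scipy 1.17.1 and matplotlib 3.10.9. With 0 counts in a strain a bound uses 3 counts over the strain, and with up to 3 counts an exact 95% interval is given, both for counting error only.

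Every member is accounted for by class; all libraries are given for those with the largest strain differences, and pathway genes named are the 3 with the smallest p per comparison, of which 1 is not reported here. Members and lists were chosen with earlier results of these data known. Replicates are separate samples by label and p-values measure the spread between these samples, which may in part be technical.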

Additional observations from a re-analysis of the deposited data

Results flagged for a closer look

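Within 138 groups of 4 libraries and members examined, 10 had a library that stood apart from the other 3 of its group, where chance alone marks about 1 in 20 groups. NZO/HlLtJ 44% fat replicate 2 stood high for H2-Eb1 at 10.8 CPM (others 4.06 to 5.13), H2-D1 at 36.3 CPM (26.5 to 28.0), B2m at 43.5 CPM (25.3 to 28.0) and H2-M3 at 1.35 CPM (1.03 to 1.07). NZO/HlLtJ 10% fat replicate 4 stood high for Tap1 at 2.67 CPM (others 1.36 to 1.56), Tap2 at 5.35 CPM (3.19 to 3.38) and Psmb10 at 3.997 CPM (1.95 to 2.12). NZO/HlLtJ 44% fat replicate 3 had 87.4 CPM of Tapbp (others 75.0 to 75.6), CAST/EiJ 44% fat replicate 2 had 2.25 CPM of H2-T23 (others 1.80 to 1.86), and C57BL/6J 44% fat replicate 1 had 2.16 CPM of H2-T24 (others 1.36 to 1.49).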

How the results depend on the processing

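In 32 settings, the members called were 21 to 31 between NZO/HlLtJ and CAST/EiJ (25 to 28 when 1 of the 23 libraries was left out), 14 to 25 between NZO/HlLtJ and C57BL/6J (22 to 25) and 22 to 27 between CAST/EiJ and C57BL/6J (24 to 26). The members tested ranged from 29 to 43 with the setting. The counts of 31 and 27 came without the filter on low counts, where 43 members were tested and 17665 and 16450 of 28521 genes passed. Those of 21 and 22 came within 10% fat, where 13387 and 12331 of 22873 genes passed. The 25 came without NZO/HlLtJ 44% fat replicate 2, where 13048 of 22818 genes passed. The lowest count, 14, came from the contrast within 10% fat, against 23 over both diets. Of all 22873 genes, 9805 and 13520 passed there. The contrast within 10% fat is taken in the same fit of all libraries but sets fewer of them against each other. Of 76 strain values called, 50 kept their call and direction in all settings, 26 lost the call in some, 7 of them when 1 library was left out, and 0 reversed. In up to 30 settings per diet comparison at most 0 members were called. Without both libraries with epididymal transcripts, a choice made after seeing the data, 28, 21 and 24 of 34 members were called in these 3 strain comparisons. Of 22744 genes, 16231, 13138 and 14676 passed. Values of members under about 0.5 CPM rest on few counts, and diet effects rest on 3 or 4 libraries a group. No paired analysis was possible because the labels give no replicate numbers that link libraries across groups.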

Other observations

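MHC-like genes outside the H2 complex were also mostly higher in NZO/HlLtJ than in the other strains. Of 6 tested, 5 were higher in NZO/HlLtJ than in CAST/EiJ with none lower, and 4 were higher and 1 lower than in C57BL/6J. In CAST/EiJ 1 was higher and 4 lower than in C57BL/6J. Over all genes tested, 39.6% were higher and 32.5% lower in NZO/HlLtJ than CAST/EiJ, and 30.4% and 28.7% against C57BL/6J. In CAST/EiJ against C57BL/6J these shares were 32.7% and 34.1%. Mr1, which presents vitamin B metabolites to MAIT cells, averaged 7.98 ± 0.883 CPM in NZO/HlLtJ, 3.52 ± 0.436 CPM in CAST/EiJ and 4.14 ± 0.419 CPM in C57BL/6J, and NZO/HlLtJ exceeded the other strains by log2 fold changes of 1.17 (SE 0.09) and 0.95 (SE 0.08). Fcgrt, the neonatal Fc receptor that pairs with B2m, was 9.02 ± 1.67, 4.99 ± 0.639 and 5.56 ± 0.872 CPM in these strains. Cd1d1, which presents lipids to NKT cells, was 1.14 ± 0.398, 0.267 ± 0.0979 and 0.692 ± 0.241 CPM.

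Among costimulatory genes and ligands, 5 of 6 had enough counts to test, of which 2 were higher and 1 lower in NZO/HlLtJ than CAST/EiJ, 1 was higher in NZO/HlLtJ than in C57BL/6J, and 2 were higher in CAST/EiJ than in C57BL/6J. Pdcd1lg2, the PD-1 ligand PD-L2, averaged 0.462 ± 0.165 CPM in NZO/HlLtJ, 1.56 ± 0.301 CPM in CAST/EiJ and 0.210 ± 0.0823 CPM in C57BL/6J, with a log2 fold change of -1.71 (SE 0.21, adjusted p = 2.7e-08 in edgeR) for NZO/HlLtJ over CAST/EiJ and 2.82 (SE 0.24, adjusted p = 1.8e-11 in edgeR) for CAST/EiJ over C57BL/6J. No gene of these lists passed in a diet comparison.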
